A study of Arabidopsis thaliana with 22 samples.

Results

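Roots of Arabidopsis thaliana Col-0 that had been moved to fresh agar 12 h earlier were compared with roots that had not been moved. The comparison takes 6 of the 22 arrays of a time course on sulfate supply, namely all 4 arrays at 12 h and both arrays of untreated roots. The arrays were taken by those labels, and the comparison was chosen with earlier results of these data known. All plants were 10 days old per the labels, all samples are total RNA of roots, and the labels name no mutation or transgene. At 12 h, 2 arrays came from MGRL agar (a defined mineral medium) with 0 uM sulfate and 2 from the same agar with 1500 uM sulfate. These are called sulfate-free and replete below, and the media were pooled unless a sentence names one. The untreated arrays are titled for 1500 uM sulfate and 0 h, and their labels describe no transfer. The 2 arrays of each group carry the letters A and B, and values are given in that order. The labels do not state the clock time of harvest, so the transfer, the 12 h since it and the time of day cannot be told apart in this comparison. In whole roots, fewer cells of a type and less RNA per cell cannot be told apart either.

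Transfer between plates exposes roots to handling, fresh nutrients and a new surface, and roots also follow the daily cycle through their own circadian clock and through sugar delivered from the shoot. When sugar runs short, plant cells turn to stored protein and amino acids, and autophagy carries cell contents to the vacuole. Roots also make phenylpropanoids and flavonoids, which are commonly stored as sugar conjugates made by UDP-glycosyltransferases. They grow by loosening their walls with expansins and xyloglucan transferases.

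Expression was measured as MAS5 signal, the linear brightness summary of a probe set, and differences are given on a log2(signal + 11) scale with their standard error (SE). On that scale folds of dim probe sets are understated. A probe set rose or fell where limma's adjusted p was under 0.05, and it is then called. A gene is represented by the brightest of its probe sets. Median signals of the 6 arrays lay between 42.9 and 44.6, and arrays of the same group correlated with r between 0.986 and 0.987. The sulfate-free 12 h array B had a compressed bright end, with a 99th percentile of 1238 against 1454 to 1560 on the other 5 arrays and a highest signal of 2649 against 4321 to 5522. PYK10, the main root beta-glucosidase, gave signals of 3486 and 3466 in untreated roots and of 2041 to 4016 at 12 h, with no call (log2 -0.13, adjusted p = 0.659). Root hair markers were not called (EXPA7 -0.53, adjusted p = 0.0569, and EXPA18 0.08, adjusted p = 0.842), nor were the markers of dividing cells AUR1 (0.20, adjusted p = 0.161) and AUR2 (0.29, adjusted p = 0.216). EXPA7 was called on the 6 arrays alone, after a filter on low signal and with 1 in place of 11 added to the signal. Of 3 measured genes in a wider root hair list SCN1 alone fell (log2 -0.28), and it was not called on the 6 arrays alone. The listed markers of endodermis, vascular tissue and root cap were not on probe sets with a single listed gene. Both green tissue markers measured, RCA and LHCB4.1, fell, and their values stand with the photosynthesis genes.

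At 12 h the 20 largest rises included the glucosyltransferase UGT84A1, the wall enzyme XTH20 and the pyruvate decarboxylase PDC2, and the 20 largest falls included the photosystem genes LHCB4.2 and PSAN, the ureide enzyme AAH and the factor bZIP58. Most genes among these 40 are known here by locus number only. Of 22746 probe sets tested, 1432 rose (6.3%) and 1491 fell (6.55%). Among 13356 genes, 758 rose (5.68%) and 767 fell (5.74%), and the median log2 difference over all genes was 0.03. The typical called change was modest, with a median log2 difference of 0.56 among rises and -0.58 among falls. A log2 difference of at least 1 was reached by 134 rises and 250 falls, and at least 2 by 19 rises and 31 falls. The falls therefore held more of the large changes by count. All 4 arrays at 12 h lay above both untreated arrays for 1359 of the rises and below both for 1442 of the falls, against 4075 (17.9%) and 3302 (14.5%) of all probe sets. The number of calls depended on how the letters were treated. Without the letter as a factor 623 probe sets rose and 782 fell, and with a random block for time and letter together 568 rose and 724 fell. It also depended on single arrays, with 1069 calls in all without untreated array A, 1364 without untreated array B and 1812 when array A of sulfate-free roots at 12 h was left out, against 2923 with every array.

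**Figure D1:**
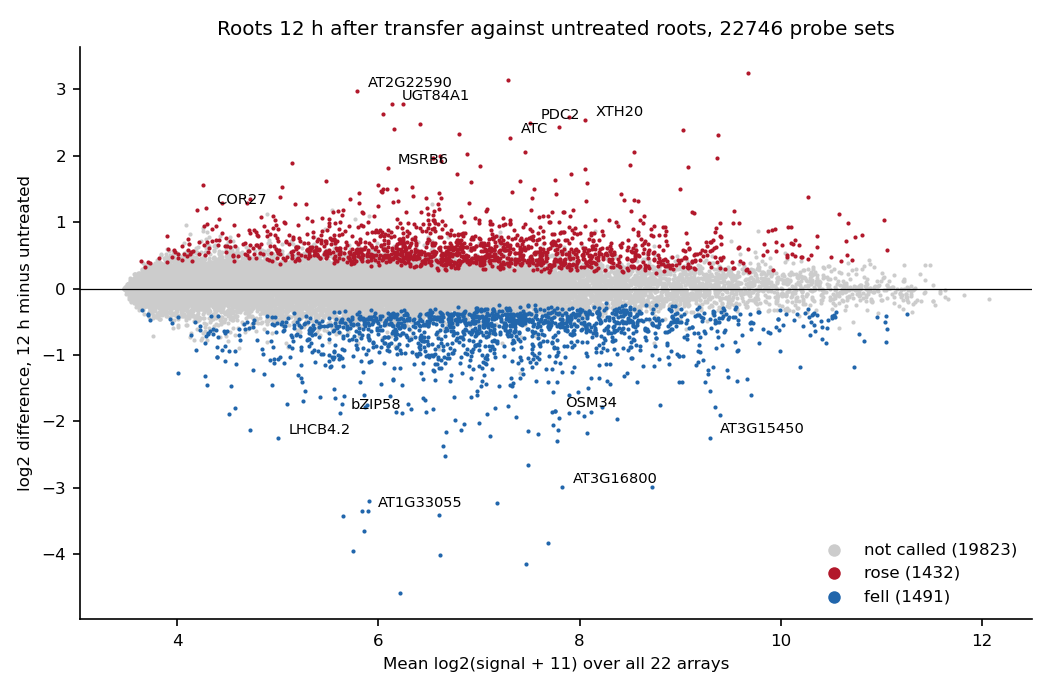
Log2 difference of 12 h minus untreated roots (vertical axis, log2(signal + 11) units) against the mean log2(signal + 11) over all 22 arrays (horizontal axis) for 22746 probe sets. Red points rose (1432), blue points fell (1491) and grey points were not called; named genes are those with values in the text, and more falls (250) than rises (134) reach a log2 difference of 1.

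Each medium was also set against the same untreated arrays. Replete roots at 12 h had 811 higher and 1010 lower probe sets (8.01% called), and sulfate-free roots had 1171 higher and 1139 lower (10.2% called). Both comparisons share the untreated arrays, so their calls are not independent. The difference between media at 12 h called only 29 probe sets (0.127%), 19 higher and 10 lower without sulfate, and 10 of the 29 list a single gene. None of the 40 leading named genes described next was among them, and the lowest adjusted p for a media difference was 0.102 among the rises and 0.187 among the falls.

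The 20 largest rises of named genes ran from 2.83-fold to 7.85-fold. They are the largest among called genes whose arrays do not overlap and whose mean signal at 12 h reached 50. UGT84A1, a glucosyltransferase acting on hydroxycinnamic acids, had signals of 18.0 and 40.3 in untreated roots, 285 and 295 on sulfate-free agar and 232 and 206 on replete agar. All 4 arrays at 12 h were far above both untreated arrays, and the log2 difference was 2.77 (SE 0.21, adjusted p = 9.27e-07), or 6.83-fold. XTH20, a xyloglucan endotransglucosylase/hydrolase of the cell wall, gave 48.1 and 63.5 untreated, 383 and 313 without sulfate and 361 and 449 with it. The media overlapped, and the rise was 5.79-fold (log2 2.53, SE 0.33, adjusted p = 1.37e-04). PDC2, a pyruvate decarboxylase at the first step of ethanol fermentation, gave 46.4 and 66.7 untreated, 362 and 435 without sulfate and 305 and 364 with it. All 4 arrays at 12 h were far above both untreated ones, and its SE was the smallest of these 3 genes. It rose 5.61-fold (log2 2.49, SE 0.11, adjusted p = 3.42e-09).

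ATC, a relative of the floral repressor TERMINAL FLOWER, stood at 43.9 and 99.4 in untreated roots and at 342, 388, 373 and 361 on the 4 arrays at 12 h. The untreated arrays differed from each other more than those at 12 h did, and the rise was 4.84-fold (log2 2.27, SE 0.32, adjusted p = 3.02e-04). MSRB6, a methionine sulfoxide reductase that repairs oxidised methionine, gave 25.7 and 65.1 untreated, 121 and 161 without sulfate and 199 and 241 with it. It rose 3.53-fold (log2 1.82, SE 0.23, adjusted p = 1.10e-04), and although both replete arrays were above both sulfate-free ones the media did not differ by the test (log2 -0.61, adjusted p = 0.726). PDF2.1, a plant defensin, rose 3.09-fold (log2 1.63, SE 0.21, adjusted p = 1.69e-04), from 19.5 and 11.7 to 96.1 and 32.7 without sulfate and 130 and 54.6 with it. Its 12 h signals were spread widely, and in both media array A was far above array B.

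The other 14 of these rises carry a locus number and no further name in the annotation used, and no role is given for them. AT2G22590 had the largest, from 7.76 and 26.3 to 237 and 381 without sulfate and 116 and 140 with it (log2 2.97, SE 0.22, adjusted p = 5.05e-07). Its signal on untreated array A lies below the 25th percentile of every array (10.2 to 13.5), so its size and rank depend on the pseudocount. The log2 difference was 3.67 at a pseudocount of 1 and 2.258 at 32, where AT2G23910 had 2.265. Both sulfate-free arrays of AT2G22590 lay above both replete arrays, and the media test gave a log2 difference of 1.17 with adjusted p = 0.134. AT2G23910 rose 5.40-fold, from 96.8 and 169 to between 656 and 873. AT5G62210 rose 5.57-fold and AT4G30650 5.24-fold, the latter from 127 and 134 to between 592 and 875. AT1G04770 went from 77.8 and 103 to 531 and 409 without sulfate and 241 and 204 with it. It rose 3.32-fold overall (log2 1.73, SE 0.18, adjusted p = 2.02e-05), and it rose in each medium taken alone (replete log2 1.21, adjusted p = 0.0024, sulfate-free log2 2.25, adjusted p = 7.56e-06). The difference between its media was 1.03 with adjusted p = 0.102. AT1G68500, AT3G59340, AT4G34950, AT5G38020, AT4G22610, AT2G16005, AT5G47980, AT1G56300 and AT1G14120 rose between 2.83-fold and 3.98-fold. Among probe sets with no gene listed here, 248729_at rose 9.48-fold, from 144 and 145 to between 1162 and 1690, and 267364_at rose 8.78-fold, from 62.5 and 54.5 to between 491 and 792.

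**Figure D2:**
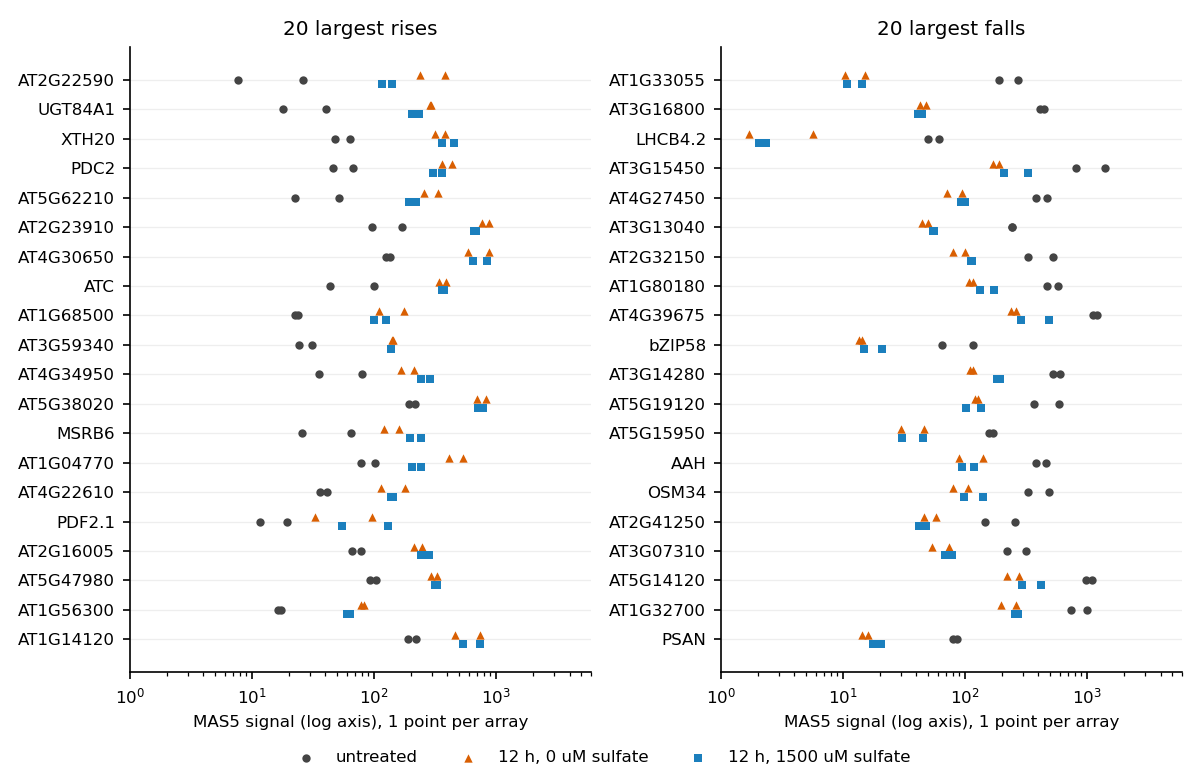
MAS5 signal (horizontal log axis) of the 20 largest named rises and 20 largest named falls, 1 point per array: grey circles untreated, orange triangles 12 h with 0 uM sulfate, blue squares 12 h with 1500 uM sulfate. In every row all 4 points at 12 h lie on one side of both untreated points, because the genes were picked on that condition.

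The 20 largest falls of named genes ran from 3.32-fold to 10.2-fold on the log2(signal + 11) scale. They were also picked among called genes whose arrays do not overlap, here with a mean signal of at least 50 in untreated roots. LHCB4.2, an antenna protein of photosystem II, gave 60.8 and 49.7 in untreated roots, 5.65 and 1.70 without sulfate and 2.05 and 2.32 with it. The 12 h signals lie below the 25th percentile of every array (10.2 to 13.5), so they are not shown to be above background, and the log2 difference of -2.25 (SE 0.23, adjusted p = 1.57e-05) depends on the pseudocount, with -3.93 at 1 and -1.32 at 32. PSAN, a subunit of photosystem I, went from 85.2 and 79.3 to 14.4, 16.2, 20.4 and 17.5 (log2 -1.73, SE 0.18, adjusted p = 1.98e-05). bZIP58, a basic leucine zipper transcription factor, went from 116 and 65.0 to 13.4 and 14.3 without sulfate and 21.0 and 14.9 with it (log2 -1.88, SE 0.19, adjusted p = 1.24e-05). For PSAN and bZIP58 the signals at 12 h lay close together and well below both untreated arrays, while for LHCB4.2 the sulfate-free array A stood apart from the other 3 at 12 h. The 12 h signals of PSAN and bZIP58 are also at the dim end of the arrays, so both sizes depend on the pseudocount. At pseudocounts of 1 and 32 the log2 difference was -2.21 and -1.22 for PSAN and -2.40 and -1.32 for bZIP58.

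AAH, an allantoate amidohydrolase that frees ammonium from the ureide allantoate, stood at 464 and 384 in untreated roots and at 88.5, 141, 94.0 and 119 at 12 h. It fell 3.61-fold (log2 -1.85, SE 0.18, adjusted p = 9.22e-06), and its media difference was 0.07 (adjusted p = 0.996). OSM34, an osmotin-like protein, went from 490 and 328 to 106, 79.3, 97.9 and 141 (log2 -1.84, SE 0.24, adjusted p = 1.39e-04). The untreated arrays of OSM34 differed from each other by more than the whole range at 12 h.

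Again 15 of the 20 are known here by locus only. AT1G33055 fell 10.2-fold, from 274 and 191 to between 10.4 and 15.1 (log2 -3.35, SE 0.36, adjusted p = 2.71e-05). Its 12 h signals lie about the 25th percentile of the arrays and are not shown to be above background, so the fold depends on the pseudocount, with a log2 difference of -4.09 at a pseudocount of 1 and -2.55 at 32. AT3G16800 fell 7.95-fold, from 412 and 443 to between 41.5 and 48.2 (log2 -2.99, SE 0.13, adjusted p = 3.42e-09), and its 4 arrays at 12 h were almost equal. AT3G15450, one of the brightest, went from 1406 and 817 to between 171 and 330 (log2 -2.24, SE 0.27, adjusted p = 8.26e-05). AT4G39675 went from 1218 and 1114 to 260 and 238 without sulfate and 489 and 286 with it (log2 -1.90, SE 0.17, adjusted p = 3.80e-06). The remaining 11 loci, AT4G27450, AT3G13040, AT2G32150, AT1G80180, AT3G14280, AT5G19120, AT5G15950, AT2G41250, AT3G07310, AT5G14120 and AT1G32700, fell between 3.38-fold and 4.36-fold. Of the probe sets without a listed gene, 261569_at went from 503 and 430 to between 3.72 and 15.6 (log2 -4.58, SE 0.21), and 267002_s_at from 463 and 467 to between 10.3 and 21.5 (log2 -4.15, SE 0.24). Those 12 h signals are at the dim end of the arrays, so both sizes depend on the pseudocount. All 40 leading genes kept their call in every alternative in which they were tested, with adjusted p up to 0.0305 for the rises and 0.0332 for the falls.

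Gene groups were described by counts and medians, to be read against the 5.68% of genes that rose, the 5.74% that fell and the median of 0.03. In the phenylpropanoid and flavonoid group 5 of 10 measured genes rose and 0 fell, with a median log2 difference of 0.42. CHIL, a chalcone isomerase-like protein of flavonoid synthesis, went from 254 and 472 to 904, 767, 835 and 673 (log2 1.16, SE 0.24, adjusted p = 0.00444). UGT78D2, a flavonoid glucosyltransferase, went from 127 and 226 to 466, 421, 368 and 329 (log2 1.16, SE 0.21, adjusted p = 0.00196). UGT78D1, a flavonol rhamnosyltransferase, rose too (0.96, adjusted p = 0.0119), although its replete arrays at 27.0 and 20.9 overlapped the untreated ones at 6.39 and 21.3. BGLU42, a beta-glucosidase, and AT3G13610 completed the rises at 0.65 and 0.57. HCT, a hydroxycinnamoyl transferase of lignin synthesis, had -0.11 (adjusted p = 0.439), and the cinnamoyl-CoA reductase CCR2 had -0.39 (adjusted p = 0.0527). CCR2 was called after a filter on low signal, at a pseudocount of 1 and with quantile normalization, so the count of 0 falls depends on the processing. Without untreated array A 0 of the 10 genes were called. UGT78D1 was not called without the letter factor or with the random block, which left 4 rises.

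Of 47 UDP-glycosyltransferases measured, 7 rose and 3 fell, with a median of 0.00, and the share that fell is close to that of all genes. Besides UGT84A1, UGT78D2 and UGT78D1, the rises were UGT84A4 (0.93, adjusted p = 3.15e-04), UGT73B4 (0.80), UGT71C3 (0.45) and UGT87A2 (0.41), and the falls were UGT76E2 (-0.69), UGT71C1 (-0.61) and UGT88A1 (-0.51). UGT72E2, a bright monolignol glucosyltransferase, had a difference of 0.02. Without the letter factor, and likewise with the random block, 4 rose and 2 fell, and without untreated array A 2 rose and 1 fell.

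Among expansins and xyloglucan transferases 3 of 27 measured genes rose and 0 fell (median 0.17). XTH32 went from 59.0 and 53.9 to 106, 140, 109 and 138 (log2 0.98, SE 0.20, adjusted p = 0.0044), and the expansin-like gene EXLA2 rose by 0.63 (adjusted p = 0.0285). EXPB3 and EXPA15, the brightest of those that did not pass the test, had larger standard errors (EXPB3 0.42, adjusted p = 0.346, and EXPA15 0.71, adjusted p = 0.252). EXPA15 was called in a fit on the 6 arrays alone. XTH20 alone was called without the letter factor and without untreated array B, and XTH20 and XTH32 with the random block. In cell wall synthesis 2 of 12 rose, the laccase LAC16 (0.66, adjusted p = 0.043) and the glucan synthase-like CSLC04 (0.40, adjusted p = 0.0177), and 0 of the 12 were called without the letter factor or with the random block for time and letter. Of 7 tubulins, which form the microtubules that guide wall deposition, TUB9 rose from 479 and 545 to between 753 and 888 (0.70, adjusted p = 0.00226) and TUB7 rose by 0.38 (adjusted p = 0.0193). Neither tubulin was called without the letter factor or with the random block. The microtubule-associated SPIRAL1-like genes SP1L4 (-0.99, adjusted p = 0.00982) and SP1L2 (-0.75, adjusted p = 0.0198) fell among 5 measured, a group picked after the values were seen, and 0 of the 5 were called in either of those fits.

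Only 2 genes of fermentation and low oxygen were measured, and besides PDC2 the locus AT3G10040 had 0.05 (adjusted p = 0.922). Sugar transporters and invertases gave 2 rises and 1 fall among 18 (median 0.07). The sugar exporters SWEET14 (0.85, adjusted p = 0.0111) and SWEET8 (0.67, adjusted p = 0.0249) rose, both from signals near the low end of the untreated arrays. SWEET2, which sits in the vacuole membrane, fell (-0.43, adjusted p = 0.0281), from 277 and 203 to between 153 and 198. None of the 3 was called without the letter factor or with the random block.

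Nuclear genes for photosystems and chlorophyll were lower at 12 h. Of 13 measured, 10 fell and 0 rose, with a median of -0.89, but the group was drawn up after these values had been seen and its direction is a description only. In a second list, of nuclear photosynthesis genes matched by symbol, 3 of 6 fell (RCA, PSB27 and PSAE-1). That list was also chosen with earlier results of these data known. Its symbol matching missed LHCB4.1, LHCB4.2, LHCB4.3 and PSAN, which belong to the families it names. RCA, the activase of Rubisco, stood at 209 and 284 untreated, 65.3 and 88.3 without sulfate and 84.6 and 88.3 with it (log2 -1.47, SE 0.14, adjusted p = 6.37e-06). LHCB4.1, an antenna protein, went from 162 and 152 to 58.5, 57.1, 79.4 and 62.0 (log2 -1.17, SE 0.17, adjusted p = 4.48e-04). CHLM, a methyltransferase of chlorophyll synthesis, went from 192 and 164 to 61.4, 75.0, 80.0 and 66.2 (log2 -1.21, SE 0.17, adjusted p = 3.36e-04). In all 3 genes the groups were clearly apart. PSB27 (-1.18), PSAE-1 (-0.89), PSBY (-0.78), PSBW (-0.52) and LIL3:2 (-0.35) fell as well. PSBW and LIL3:2 were not called without the letter factor or with the random block for time and letter, which left 8 of the 13. Not called were LHCB4.3 (0.10), LIL3:1 (0.37) and CHLI2 (-0.11), all with signals of 32.6 or less on the 6 arrays. Of the 13 genes, 8 had a mean signal above the 40th percentile.

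Of 69 chloroplast-encoded genes measured, 4 rose and 0 fell by limma, with a median of 0.15 and 12 genes at an unadjusted p under 0.05. The share that rose is close to the 5.68% of all genes, and the difference from the nuclear genes was not tested. The rises were petG (0.56), rps2 (0.53), rpl33 (0.51) and ndhK (0.47), and none of them was called without the letter factor or with the random block. The bright transcripts atpB (-0.01, adjusted p = 0.982) and petB (0.07, adjusted p = 0.786) differed little. RCA and LHCB4.1 are themselves the markers of green tissue measured here, so a change in green tissue among the samples moves with these falls, and its part in them was not tested.

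**Figure D3:**
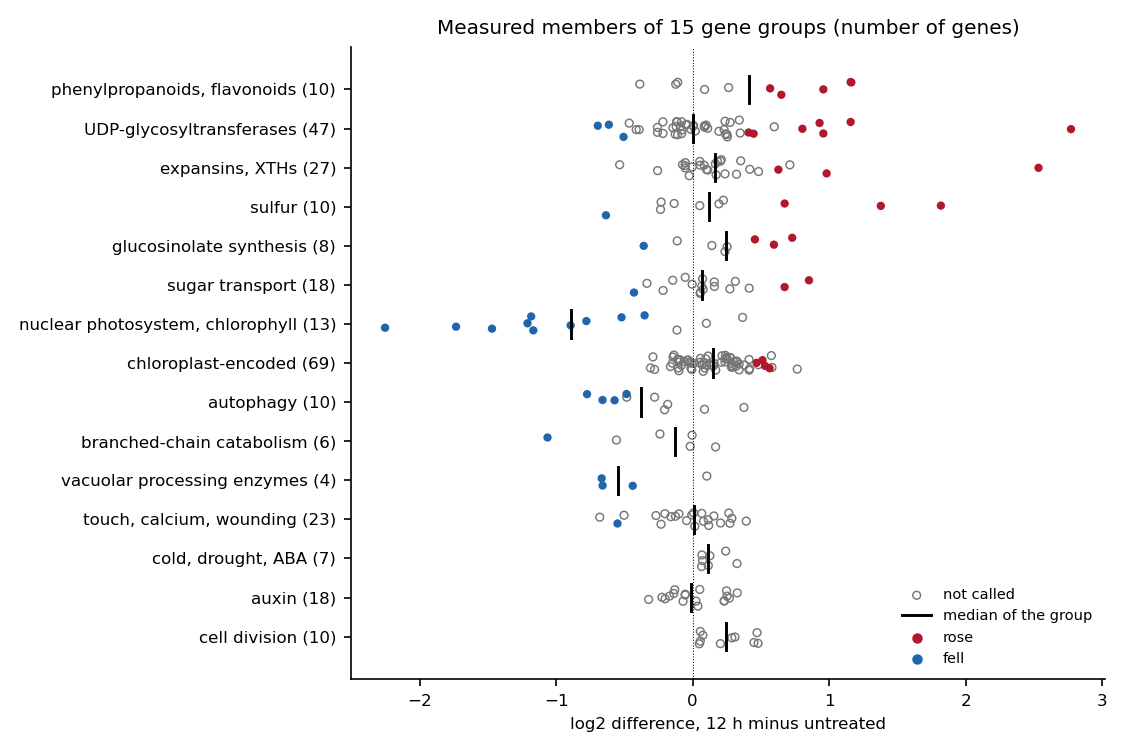
Log2 difference of 12 h minus untreated (horizontal axis) for every measured member of 15 gene groups, with the number of genes in brackets; filled red points rose, filled blue points fell, open points were not called and the black bar is the group's median. The nuclear photosystem group lies mostly to the left (10 of 13 fell) and the chloroplast-encoded group around 0.15; vertical scatter within a row has no meaning.

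In autophagy, the wrapping of cell contents for delivery to the vacuole, 4 of 10 measured genes fell and 0 rose (median -0.38). ATG8E, which encodes a protein bound to the autophagosome membrane, went from 524 and 344 to 308, 200, 307 and 186 (log2 -0.77, SE 0.17, adjusted p = 0.0074). Array A exceeded array B in each group, and every array at 12 h was below both untreated arrays. ATG8F (-0.66), ATG8C (-0.57) and APG8H (-0.48) fell too, while ATG3, an enzyme that attaches lipid to ATG8, had -0.21 (adjusted p = 0.114). None of the 4 falls was called without the letter factor, nor with the random block for time and letter. APG8A, not called in the main fit, was called after a filter on low signal and on the 6 arrays alone. Among 6 genes of branched-chain amino acid breakdown 1 fell, MCCA, a subunit of methylcrotonyl-CoA carboxylase in leucine breakdown, from 147 and 107 to 51.3, 63.2, 59.7 and 44.2 (log2 -1.07, SE 0.20, adjusted p = 0.00263). Its partner subunit MCCB had -0.24 (adjusted p = 0.424).

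Vacuolar processing enzymes, proteases that mature vacuolar proteins, and ureide enzymes were also grouped after the values were seen. Of 4 processing enzymes 3 fell: ALPHA-VPE (-0.67), GAMMA-VPE (-0.66) and BETA-VPE (-0.44, not called with the random block). GAMMA-VPE, the brightest of the 4, went from 1356 and 1244 to 886, 751, 874 and 771. Of 3 ureide genes AAH and ALN fell, and ALN, the allantoinase one step before AAH, went from 205 and 170 to between 108 and 129 (log2 -0.63, SE 0.10, adjusted p = 0.0011). Among 3 genes listed for sugar starvation, the kinase subunit AKINBETA1 fell (-0.85, adjusted p = 0.0138), BZIP53 rose by 0.24 (adjusted p = 0.0498) and ATL8 had -0.08. Neither AKINBETA1 nor BZIP53 was called without the letter factor or with the random block, and the call on BZIP53 was also lost without any 1 of the 6 arrays. Of 6 measured genes of starch and trehalose 0 were called by limma, and 1 had an unadjusted p under 0.05. In the other direction, both measured subunits of RNA polymerase I, which transcribes ribosomal RNA genes, rose (NRPA1 0.62, adjusted p = 0.0142, and NRPA2 0.55, adjusted p = 0.00534), another pair picked after the values were seen, and NRPA2 was not called without the letter factor or with the random block. NRPA1 kept its call in both of those fits, but that call depended on single arrays, among them each untreated array.

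Genes matched to the sulfur list by symbol or synonym gave 3 rises and 1 fall among 10 measured (median 0.12). A listed gene that is known here by locus number only can be missed by such matching, so the count may be incomplete. Besides MSRB6 the called genes were APS3, APS4 and BGLU28. APS3 and APS4 are ATP sulfurylases, which activate sulfate, and they moved in opposite directions. APS3 rose from 46.0 and 63.9 to 92.6, 123, 62.3 and 105 (log2 0.67, SE 0.13, adjusted p = 0.00384), with 1 replete array inside the untreated range, and it was not called without the letter factor or with the random block. APS4, much brighter, fell from 1582 and 1589 to 809 and 973 without sulfate and 1154 and 1177 with it (log2 -0.64, SE 0.10, adjusted p = 6.43e-04). Neither differed between media by the test (adjusted p = 0.741 and 0.434). The related reductases MSRB5 (0.23) and MSRB9 (-0.14) were not called.

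For BGLU28 the pooled value stands for neither medium. This beta-glucosidase, known to be induced by sulfur shortage, gave 3.65 and 9.88 untreated, 98.4 and 111 without sulfate and 4.42 and 9.78 with it. Only the sulfate-free arrays were high, with a log2 difference from untreated of 2.72 (SE 0.23, adjusted p = 3.58e-06) against 0.03 (adjusted p = 0.959) for replete roots, and the difference between media was 2.69 (SE 0.23, adjusted p = 5.62e-05). BCAT4, an aminotransferase of methionine chain elongation for glucosinolates, went from 1023 and 1130 untreated to 525 and 558 without sulfate and 1217 and 1365 with it. Its media differed by -1.23 (SE 0.13, adjusted p = 3.80e-04), so its pooled fall of -0.36 (adjusted p = 0.0464) does not describe replete roots, which had 0.26 (adjusted p = 0.257) against untreated. The call on its pooled fall was lost without any 1 of the 6 arrays. BGLU28 and BCAT4 are the only genes named here that were called between media at 12 h.

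Of 8 genes of glucosinolate synthesis and transport 3 rose and BCAT4 alone fell (median 0.24). FMO, a flavin monooxygenase gene, rose from 110 and 123 to between 170 and 251 (0.73, adjusted p = 2.74e-04), and GTR1, a glucosinolate importer, rose by 0.46 (adjusted p = 0.00759). GTR1 was not called in a fit on the 6 arrays of this comparison alone. GSTU20, a glutathione transferase tied to this pathway, rose by 0.60 over both media (adjusted p = 0.0249). Without the letter factor, or with the random block, neither GSTU20 nor BCAT4 was called and 2 of the 8 genes rose. GSTU20 stood at 357 and 515 on replete agar, at 191 and 255 without sulfate and at 199 and 201 untreated, so that in single media it was called in replete roots (1.06, adjusted p = 0.00302) and not in sulfate-free roots (0.13, adjusted p = 0.77). The test of the media difference gave -0.92 with adjusted p = 0.102. Among 9 genes of endoplasmic reticulum bodies, which store beta-glucosidases, 2 rose: NAI1, the transcription factor needed for them (0.65, adjusted p = 0.0114), and NAI2, a component of them (0.43, adjusted p = 0.00544). Neither was called without untreated array A, and NAI1 was also not called without the letter factor or with the random block.

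Beta-glucosidases as a family split. Of 22 measured, 3 rose (BGLU28, BGLU42 and BGLU25) and 2 fell. BGLU46 went from 300 and 221 to 95.1, 69.2, 98.8 and 89.0 (log2 -1.45, SE 0.13, adjusted p = 6.37e-06) and BGLU45 from 48.3 and 27.2 to between 6.78 and 12.5 (-1.23, adjusted p = 6.05e-05). Both belong to the enzymes that act on monolignol glucosides, the sugar-bound precursors of lignin. Serine carboxypeptidase-like genes had 3 rises and 1 fall among 29, and the fall, scpl31, was the largest of the 4 changes (-1.24, adjusted p = 0.00232). The call on scpl31 depended on untreated array A. Of 22 cytochrome P450 genes 4 fell and 0 rose, from CYP71B26 (-0.73) to CYP71B28 (-0.48), and 0 were called without untreated array B, 3 without the letter factor and 2 with the random block.

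Clock genes were sparse. Both measured evening-phased genes were called, in opposite directions. COR27, a cold-regulated clock repressor with evening expression, gave 4.57 and 0.86 untreated and 24.3, 18.6, 27.5 and 13.3 at 12 h (log2 1.21, SE 0.16, adjusted p = 1.55e-04), with no overlap between groups. Its untreated signals lie below the 25th percentile of every array (10.2 to 13.5), and replete array B at 12 h lies within that range. Those signals are not shown to be above background, so the size of the COR27 rise depends on the pseudocount. GI, a clock component that peaks late in the day, went from 144 and 181 to 99.8, 142, 119 and 111 (log2 -0.43, SE 0.12, adjusted p = 0.0244) and was not called without the letter factor or with the random block. No listed morning-phased gene was on a probe set with a single listed gene, and HYH, the 1 light signalling gene measured, had -0.01 (adjusted p = 0.977).

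Several stress, hormone and growth groups showed few calls or none. Of 23 genes of touch, calcium and wounding 1 fell, the ubiquitin ligase PUB24 (-0.56, adjusted p = 0.0441), and 0 rose. PUB24 was not called without the letter factor, with the random block or without either untreated array. None of 7 protective proteins of cold, drought and ABA was called (LTI30 0.33, adjusted p = 0.0795, and COR47 0.11, adjusted p = 0.519), and 1 had an unadjusted p under 0.05. LTI30 was called after a filter on low signal, so the lack of calls in that group depends on the processing. None of 18 auxin genes and none of 10 genes of cell division and chromatin was called by limma, with medians of -0.01 and 0.25 and with 1 and 3 genes at an unadjusted p under 0.05. Neither EIN3 (-0.20) nor ARR15 (0.02), genes of ethylene and cytokinin signalling, was called, and none of 3 genes of ion channels and proton pumps was, with 1 unadjusted p under 0.05 in each of these lists. The jasmonate factor MYC4 fell (-0.46, adjusted p = 0.00914) and MYC3 had -0.31 (adjusted p = 0.0621). The call on MYC4 depended on untreated array B, and MYC3 was called after a filter on low signal. Of 8 metal genes the manganese transporter MTP11 alone fell (-0.32, adjusted p = 0.0163), and of 5 heat and unfolded protein genes Hsp70-2 alone rose (0.52, adjusted p = 0.00783). Neither MTP11 nor Hsp70-2 was called in a fit on the 6 arrays alone. Of the 10 genes matched to the defence list, the defensin-like LCR69 alone rose, from 1214 and 1139 to between 1602 and 2523 (0.81, adjusted p = 2.81e-04). LCR68 of the same list was called only after the filter on low signal. The defensin gene PDF2.1, given above among the largest rises, belongs to a family in that list but was not matched to it.

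Among 13 peroxidase and thiol redox genes, the peroxidase PRX52 (0.87) and the glutaredoxin GRX480 (0.68) rose while the thioredoxin TRXF2 (-0.72) and the glutaredoxin GRXC1 (-0.51) fell. The calls on GRX480 and GRXC1 were lost without the letter factor and with the random block for time and letter, which left 1 rise and 1 fall. Both glutathione reductases, picked after the values were seen, fell slightly (GR -0.39, adjusted p = 0.0161, and GR1 -0.35, adjusted p = 0.0428), but GR1 was not called in either of those fits. Neither GR nor GR1 was called in a fit on the 6 arrays alone. Of 13 glutathione transferases GSTU22 (0.70) and GSTU20 rose and GSTU28 (-0.48) fell. GSTU20 was again not called without the letter factor or with the random block.

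The 12 h arrays were next set against the 4 arrays at 24 h and the 4 at 2 h, again with both media pooled. Against 24 h, 737 probe sets were higher at 12 h (3.24%) and 887 lower (3.9%). Against 2 h, 2154 were higher at 12 h (9.47%) and 1813 lower (7.97%). These comparisons use the same 12 h arrays as the comparison with untreated roots, so only their own values are given, side by side.

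The mean signal of UGT84A1 was 28.5, 30.2 and 76.7 at 2, 4 and 8 h, then 255 at 12 h and 56.4 at 24 h, with a log2 difference of 2.03 between 12 and 24 h (adjusted p = 3.15e-06). PDC2 had means of 118, 233 and 375 at 2, 4 and 8 h, 366 at 12 h and 61.9 at 24 h (12 h minus 24 h 2.36, adjusted p = 3.72e-10). XTH20 had its highest mean at 8 h (534) and stood at 376 at 12 h and 217 at 24 h, and the difference between 12 and 24 h was not called (0.77, adjusted p = 0.105). For MSRB6 the mean was 181 at 12 h and 35.6 at 24 h (adjusted p = 3.82e-06). COR27 had means of 43.4 at 8 h, 20.9 at 12 h and 0.73 at 24 h. A different course was that of AT4G22610, whose mean was 624 at 2 h and 144 at 12 h (12 h minus 2 h -2.05, adjusted p = 2.86e-08).

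LHCB4.2, PSAN, bZIP58, AAH and OSM34 were each lower at 12 h than at 24 h by limma. Their log2 differences were -1.70, -1.25, -1.24, -1.16 and -1.78, with 24 h means of 34.8, 56.3, 53.1, 257 and 387. The same genes were lower at 12 h than at 2 h, by -1.51, -1.05, -1.66, -1.38 and -0.74. RCA had means of 156, 140 and 96.9 at 2, 4 and 8 h, 81.6 at 12 h and 212 at 24 h (12 h minus 24 h -1.26, adjusted p = 3.87e-06). ATG8E, by contrast, had means of 301 at 2 h, 250 at 12 h and 306 at 24 h, with no call for 12 h minus 2 h (-0.24, adjusted p = 0.28) or 12 h minus 24 h (-0.28, adjusted p = 0.282). The probe set 261569_at, with no gene listed, had a mean of 9.54 at 12 h and 491 at 24 h (-4.65, adjusted p = 3.72e-10), and 267364_at had 608 at 12 h and 56.1 at 24 h (3.19, adjusted p = 4.38e-09). Roots at 24 h were not tested against untreated roots here.

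**Figure D4:**
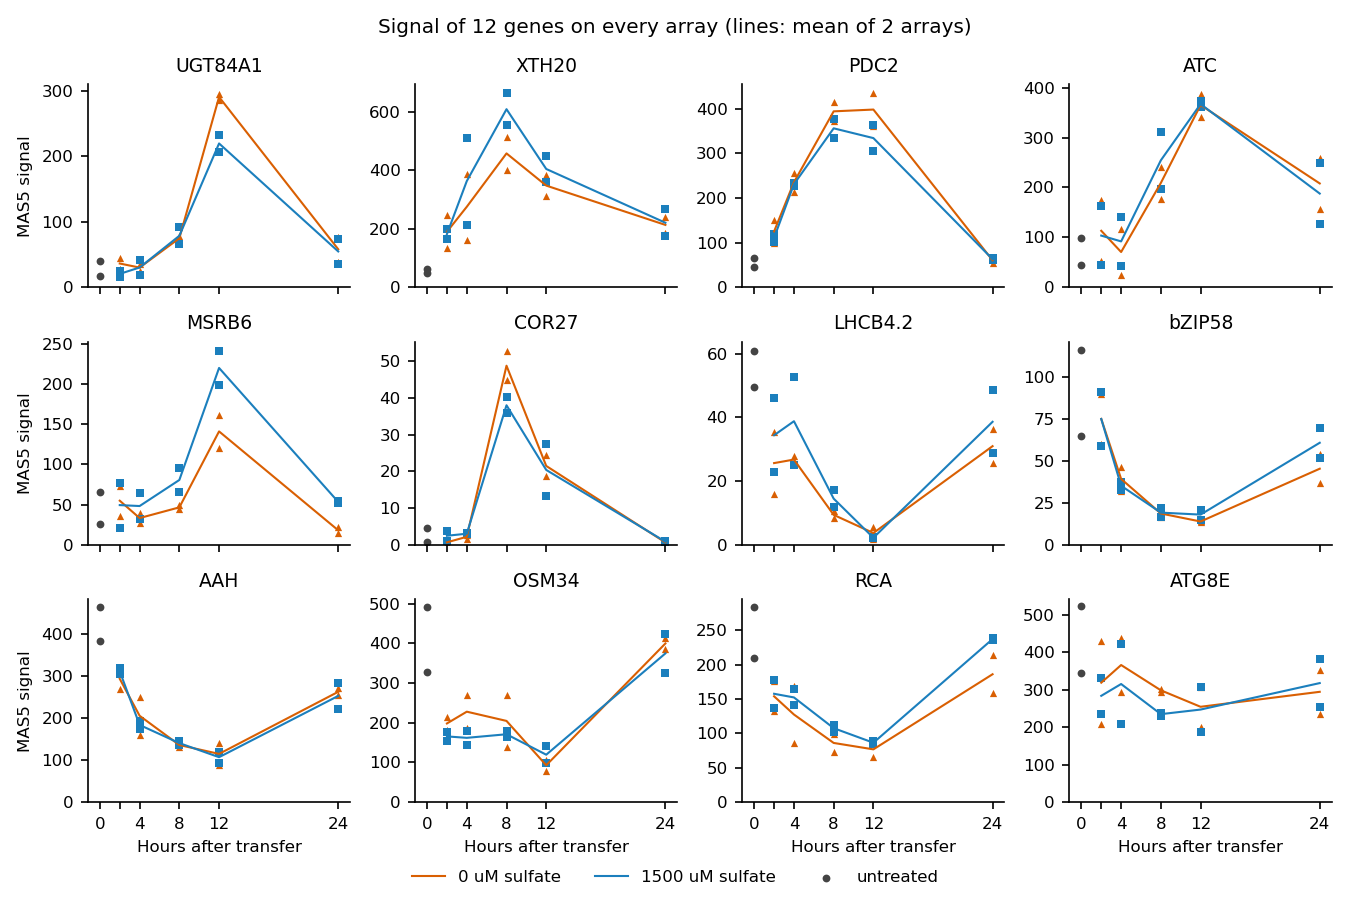
MAS5 signal (vertical axis, from 0) against hours after transfer (horizontal axis) for 12 genes, 1 point per array: grey circles untreated roots drawn at 0 h, orange triangles 0 uM sulfate, blue squares 1500 uM sulfate, with lines through the mean of 2 arrays. UGT84A1, PDC2 and MSRB6 are high at 12 h and lower at 24 h, and LHCB4.2, bZIP58, AAH, OSM34 and RCA are low at 12 h and higher at 24 h.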

How the data were processed

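Each of the 22 root RNA samples was put on 1 array. The deposited intensities are MAS5 signals per probe set, as the submitters' processing notes name the tool; its version and scaling target were not stated. Values were not normalized again. After 64 controls were dropped from 22810 probe sets, the remaining 22746 were transformed to log2 of the deposited signal plus 11 and fitted in R 4.3.3 with limma 3.58.1, using lmFit and a trended eBayes. The fit had 11 groups and the letter as a factor over all 22 arrays, with 10 residual degrees of freedom, and was tested on simulated data. P-values were adjusted by Benjamini-Hochberg over all probe sets, with a threshold of 0.05. The median SE of the main difference was 0.14; arrays have no counting depth, and their number limits the precision. The labels do not state whether the A and B arrays are separate cultures. P-values therefore reflect the spread among these samples alone, and that spread may be technical.

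The letter of the sample titles was kept as a factor. Across probe sets, differences of array A from array B in the 3 groups correlated with r of 0.183, 0.183 and 0.196, all above 0.1. Over all 11 groups 52 of 55 pairs of groups were above 0.1, with r from -0.02 to 0.48, so the letters do not pair every group, and the counts without the letter factor are given beside the results.

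Platform annotation gives 1 gene for 13513 probe sets, several for 503 and none for 8730, and symbols were updated through the RefSeq table of assembly TAIR10.1 (13436 matched). Named genes are the 20 largest rises and falls defined in the text, up to 4 called and 2 uncalled members of each list, all clock and marker genes, and 2 unnamed probe sets a direction. Of 35 gene lists, with 2375 entries, 296 entries were measured and 5 lists had none. A further 25 families came from the annotation and 6 groups were picked after values were seen. List entries whose symbol belongs to another gene were removed by name. A family entry took no symbol with a dot, or without a digit, after its stem, so some family members are missing from the lists. The comparison and the lists were chosen with earlier results of these data known. The brightest probe set stands for a gene; of 146 genes with several, calls differed between probe sets for 15. Promoter sequences were not used here.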

Additional observations from a re-analysis of the deposited data

Results flagged for a closer look

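In 11 of 222 named genes or probe sets 1 of the 4 arrays at 12 h lay far from the other 3, by Dixon's criterion on signals; chance flags about 1 in 20 groups. Sulfate-free array A was high for LHCB4.2 (5.65 against 1.70 to 2.32), MSRB5 (1469 against 1058 to 1104) and CCR2 (70.1 against 39.3 to 42.9) and low for RCA (65.3 against 84.6 to 88.3). Sulfate-free array B was high for AUR2 (79.1 against 45.5 to 49.2). Replete array A was high for EXPA7 (123 against 92.6 to 95.4) and low for rps2 (166 against 212 to 219) and CYP84A4 (17.1 against 24.9 to 26.2). Replete array B was high for PUB24 (37.4 against 27.2 to 27.7), TUB7 (423 against 378 to 383) and the iron factor gene PYE (73.1 against 61.2 to 63.1).

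For BGLU28 and BCAT4 the change from untreated roots to 12 h differed between media, with a sulfate-free minus replete log2 difference of 2.69 (limma adjusted p = 5.62e-05) and -1.23 (adjusted p = 3.80e-04). Both sulfate-free arrays lay beyond both replete arrays for these genes.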

How the results depend on the processing

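Between 12 h and untreated roots 2923 probe sets were called, against 1405 with no replicate block (without the letter factor) and 1292 with the replicate block of time and letter, and 0 shared calls changed direction. Leaving out 1 array gave 1069 to 2553 calls. The filter on low signal, pseudocounts of 1 and 32, quantile normalization, a fit without the trend and a fit on 6 arrays gave 2339 to 3262. Without the letter factor, so unpaired, the other counts of calls were 708 for replete roots against untreated, 934 for sulfate-free roots, 770 for 12 h minus 24 h and 2532 for 12 h minus 2 h, against 1821, 2310, 1624 and 3967. Between media, 44 probe sets were called with the filter; the share that was higher without sulfate was 65.5%, against 81.0% without the letter factor, 76.9% at a pseudocount of 32 and 52.3% with the filter. The cause of these shifts was not tested. Of the 222 named results, 41 lost their call without the letter factor, 45 with the block of time and letter, 55 without untreated array A and 45 without untreated array B, and 0 reversed. Only 2 untreated arrays exist, no detection calls were used, and signals near the 25th percentile are not shown to be above background.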
